A study of Mus musculus with 7 samples.

Results

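The genes of cholesterol and fatty acid synthesis were described in pancreatic islets of pregnant mice, as a module of 43 genes chosen by name. The module holds the enzymes that lead from acetyl-CoA to cholesterol, the SREBP transcription factors with their regulators, the enzymes of fatty acid synthesis, elongation and desaturation, genes of glycerolipid assembly, and the cholesterol exporters Abca1 and Abcg1. Of the 43 genes, 42 were measured by a probe set annotated with that symbol alone, among 19938 genes in all; Acat2 was not analysed here. Where a gene had several such probe sets, as Idi1, Fdft1 and Acaca did, the one with the highest mean stood for it. Islets of 7 C57BL/6-background females were taken on day 15 of pregnancy, after mating at 12 to 16 weeks of age, and each mouse gave 1 Affymetrix expression array, from RNA with an integrity number above 8.5. The wild-type group, PrlR+/+, had 3 mice with an intact prolactin receptor gene. The heterozygous group, PrlR+/-, had 4 mice carrying 1 null allele of that gene. The labels limit the null allele to no cell type, name no further allele or agent in either group, and do not say whether the groups were littermates.

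Cells make cholesterol from acetyl-CoA through mevalonate, isoprenoid intermediates and squalene, and they make fatty acids from the same acetyl-CoA through malonyl-CoA. Most of these genes are transcribed under the control of SREBP factors, which Scap escorts out of the endoplasmic reticulum when sterols are scarce and which the Insig proteins hold back when sterols are abundant. The factor NF-Y binds CCAAT boxes close to many SREBP sites. In beta cells, membrane cholesterol and fatty acid desaturation are known to affect insulin granules and secretion, and the prolactin receptor takes part in the growth of beta cells during pregnancy.

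The promoters of the module are shown first because they hold what many members share in sequence and what the choice of members did not use. RefSeq windows of 300 bases (build GRCm38.p6, 250 bases before to 50 after a transcript start) were at hand for 33 of the 43 genes. A CCAAT box, searched as CCAAT on either strand so that the other strand reads ATTGG, was found for 26 of these 33 genes (78.8%), against 41.1% of all 27025 genes with a window and 42.1% of genes on the array with a mean above the 40th percentile. By window, which allows for genes with several starts, the shares were 27 of 43 (62.8%) for members and 37.41% for all 32851 windows. Of the sterol synthesis enzymes with a window, 15 of 16 had a CCAAT box, Acat2 being the exception. The counts were 4 of 5 for SREBP regulators, 6 of 9 for fatty acid synthesis, 1 of 2 for glycerolipid genes and 0 of 1 for exporters. The E-box CACGTG was found for 7 genes (21.2%, against 8.1% of all genes and 11.7% of genes on the array with a mean above the 40th percentile). The strict form of the sterol response element, TCACNCCAC on either strand, was found for 1 member, Hmgcs1, and for 1.4% of all genes. These are matches of letters and not measured binding. The motifs do not overlap in the stretches printed here.

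The following 60-base stretches lie upstream of the start of 6 members, 5′ to 3′ on the gene's strand, and were chosen once the matches were known. Capitals mark the sterol response element in Hmgcs1, at chr13:119690188-119690247 on the plus strand, and CCAAT boxes in the others. Idi1 is at chr13:8885546-8885605 (plus), Cyp51 at chr5:4104698-4104757 (minus), Lss at chr10:76531515-76531574 (plus), Insig1 at chr5:28071168-28071227 (plus) and Acss2 at chr2:155517942-155518001 (plus).
Hmgcs1: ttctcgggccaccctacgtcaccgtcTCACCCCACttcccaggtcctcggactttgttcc
Idi1: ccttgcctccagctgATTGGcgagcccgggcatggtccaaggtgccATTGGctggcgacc
Cyp51: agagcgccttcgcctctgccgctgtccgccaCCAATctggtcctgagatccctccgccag
Lss: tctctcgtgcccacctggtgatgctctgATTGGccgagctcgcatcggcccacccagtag
Insig1: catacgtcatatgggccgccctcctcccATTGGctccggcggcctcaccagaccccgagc
Acss2: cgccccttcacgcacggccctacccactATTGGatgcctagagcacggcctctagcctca

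All values below are log2 values as deposited. They ran from 1.73 to 13.97 over all probe sets, and the median gene lay between 7.34 and 7.37 on every array. The beta cell marker Ins2 was at 13.23 to 13.36 in all mice and so brighter than 99.9% of genes. All 42 members had a mean above the 40th percentile of genes. Many genes had exactly the same value, to 2 decimals, on 2 or more arrays: this held for 20 of the 42 members (47.6%) and for 68.9% of all genes. Such ties may make a spread smaller than it is in the tissue, and their source was not tested. In bulk islets, fewer cells of a type and less RNA per cell cannot be told apart. Since the receptor gene was not analysed here, no check of the genotypes by its level was made.

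No gene of the module passed the test between the genotypes after adjustment over all genes. limma called 0 of 42 members at a Benjamini-Hochberg adjusted p under 0.05, where the share over all genes was 0.0%, and the smallest adjusted p of any member was 0.99. Sterol synthesis genes had lower means in PrlR+/- islets for 13 of 18 members, with a median log2 difference (PrlR+/- minus PrlR+/+) of -0.11. Fatty acid synthesis genes were split evenly, 6 of 12 lower, with a median of -0.01. Over the whole module 29 of 42 members had a lower mean, or 69.0%, against 43.7% of all genes and 51.2% of genes with a mean above the 40th percentile, where all members lie. The median was -0.05 against 0.01 for all genes; it ran from -0.09 without PrlR+/+ 1 to -0.01 without PrlR+/+ 2 and was 0.02 with array weights. At an unadjusted p under 0.05 limma picked 1 member on the lower side, Acss2 (1.13% of all genes), and 0 on the higher side (1.07% of all genes). This count was 0 without PrlR+/- 3 (2.37% of all genes, either direction) and 2 without PrlR+/- 4 (1.87%), and which member was picked varied: without PrlR+/+ 2, PrlR+/+ 3 or PrlR+/- 2 it was not Acss2. The groups did not overlap for 2 members, Elovl6 and Acss2, both lower in PrlR+/- (1.21% of all genes), and for 0 on the higher side (1.03%). Among genes with a mean above the 40th percentile these shares were 1.85% and 0.894%.

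The size of the difference depended on single mice, in both directions. The median of the sterol synthesis genes was -0.02 without PrlR+/+ 2 and -0.07 without PrlR+/- 4, but -0.20 without PrlR+/+ 3, -0.21 without PrlR+/- 2 and -0.23 with the mean of acinar markers as a covariate. With array weights, which gave PrlR+/- 4 the lowest weight of 0.293, the sterol median was 0.02 and 16 of 42 members had a lower mean, against 45.8% of all genes. The design of 3 against 4 arrays gave a median standard error of 0.15 for members, against 0.10 for all genes. The 95% interval of the difference lay within 1.5-fold in both directions for 26 of 42 members (61.9%) and for 89.9% of all genes. For the other 16 members the interval reached past 1.5-fold.

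**Figure D1:**
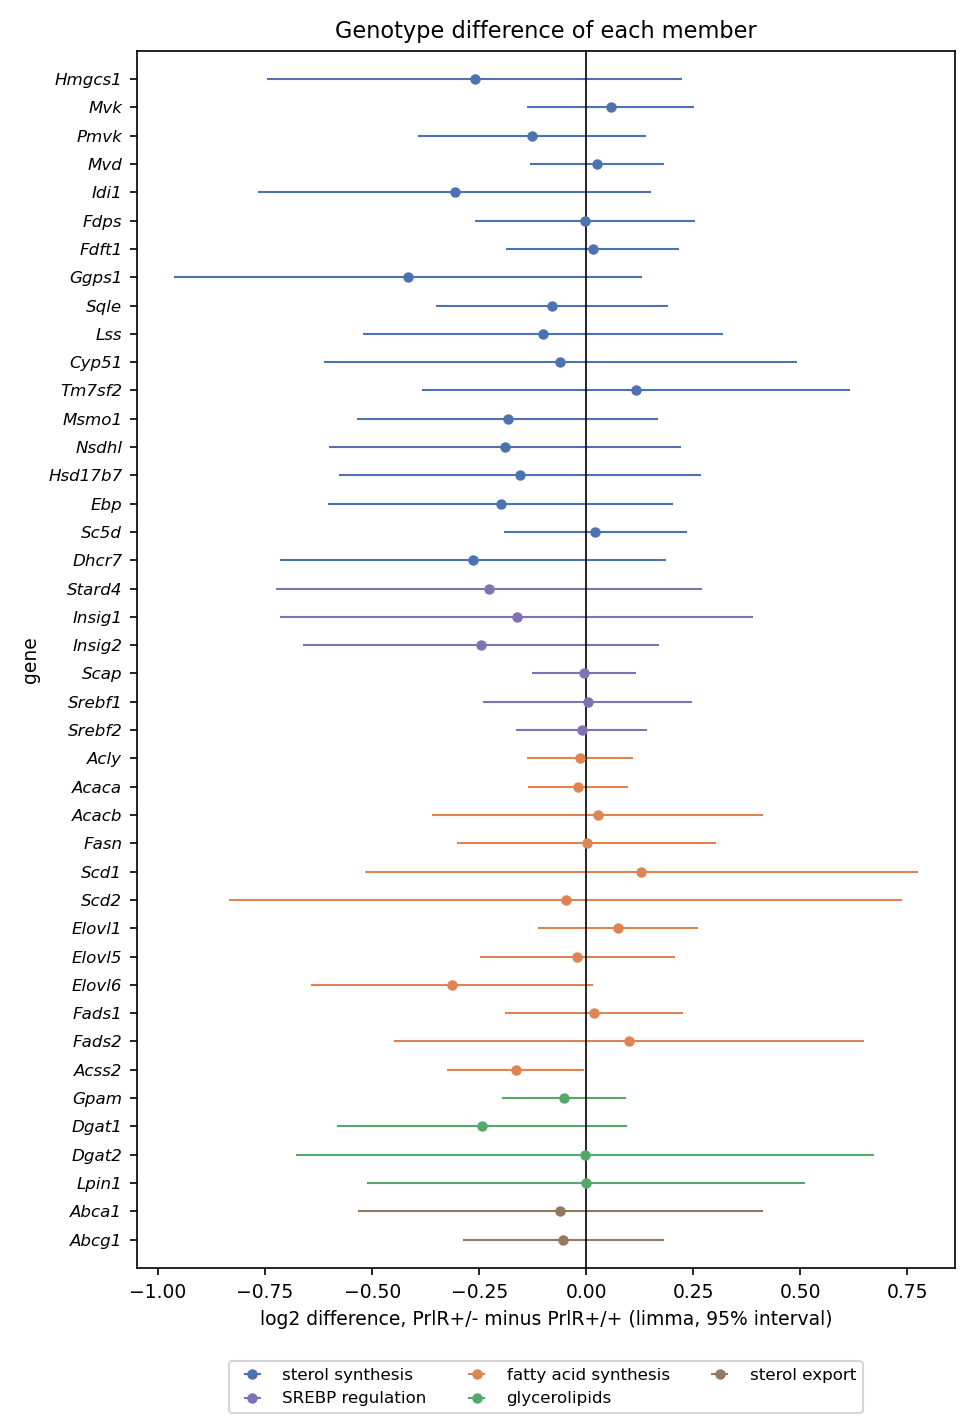
Log2 difference between PrlR+/- (4 mice) and PrlR+/+ islets (3 mice) for each of the 42 measured members, coloured by role; points are limma estimates and lines their 95% intervals. The interval of Acss2 alone ends below 0, at -0.004, and the sterol synthesis genes have a median of -0.11.

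The first sterol synthesis enzyme measured here was Hmgcs1, the cytosolic HMG-CoA synthase whose promoter holds the sterol response element shown above. Its log2 values (probe set 10412466) were 8.82, 9.55 and 8.69 in PrlR+/+ islets (mice 1, 2 and 3, an order kept throughout) and 8.95, 8.82, 8.70 and 8.57 in PrlR+/- islets (mice 1, 2, 3 and 4). PrlR+/+ 2 stood well above every other mouse, and the other values of both genotypes interleaved. The difference was -0.26 ± 0.21 (SE), and 0.005 without PrlR+/+ 2.

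Idi1, the isomerase that makes dimethylallyl diphosphate, had values of 7.65, 8.18 and 7.63 in PrlR+/+ and 7.70, 7.79, 7.42 and 7.14 in PrlR+/- islets (probe set 10403413). PrlR+/+ 2 was again highest, PrlR+/- 4 was lowest, and the groups overlapped. The difference was -0.31 ± 0.20 (SE), with a range of -0.40 to -0.13 when each mouse was left out. A second probe set of Idi1 also had its highest value, 8.13, in PrlR+/+ 2 and its lowest, 7.33, in PrlR+/- 4.

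Ggps1, which makes geranylgeranyl diphosphate for protein prenylation and is thus a branch off the sterol line, had the largest difference of any member. Its values were 9.97, 9.60 and 9.78 in PrlR+/+ and 9.64, 9.73, 9.35 and 8.75 in PrlR+/- islets (probe set 10407833). The lowest values belonged to PrlR+/- 4 and PrlR+/- 3, while PrlR+/- 1 and PrlR+/- 2 lay above PrlR+/+ 2. The difference of -0.42 ± 0.23 (SE) corresponds to a ratio of 0.750 with a 95% interval of 0.513 to 1.095, and it was -0.21 without PrlR+/- 4.

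The remaining sterol enzymes had differences between -0.26 and 0.12, all with overlapping groups. The lower means were those of Dhcr7 (-0.26 ± 0.19, SE), which completes cholesterol, of Ebp (-0.20 ± 0.17), the sterol isomerase, and of Nsdhl (-0.19 ± 0.18) and Msmo1 (-0.18 ± 0.15), which remove the methyl groups at carbon 4. Hsd17b7, the 3-keto reductase of the same step, differed by -0.16 ± 0.18 and Pmvk, the phosphomevalonate kinase, by -0.13 ± 0.11. The lanosterol synthase gene Lss (-0.10 ± 0.18), the squalene epoxidase gene Sqle (-0.08 ± 0.12) and the lanosterol demethylase gene Cyp51 (-0.06 ± 0.24) were nearer to 0. Near or above 0 lay Fdps (-0.0025 ± 0.11), which makes farnesyl diphosphate, Fdft1, the squalene synthase gene (0.02 ± 0.09), Sc5d (0.02 ± 0.09), Mvd (0.03 ± 0.07), the mevalonate kinase gene Mvk (0.06 ± 0.08) and the sterol reductase gene Tm7sf2 (0.12 ± 0.21). Fdft1 and Mvd had narrow 95% intervals of the ratio, 0.878 to 1.163 and 0.914 to 1.134. Transcripts of Fdps and Idi1 have close copies in the mouse genome, so the probes may also bind those.

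**Figure D2:**
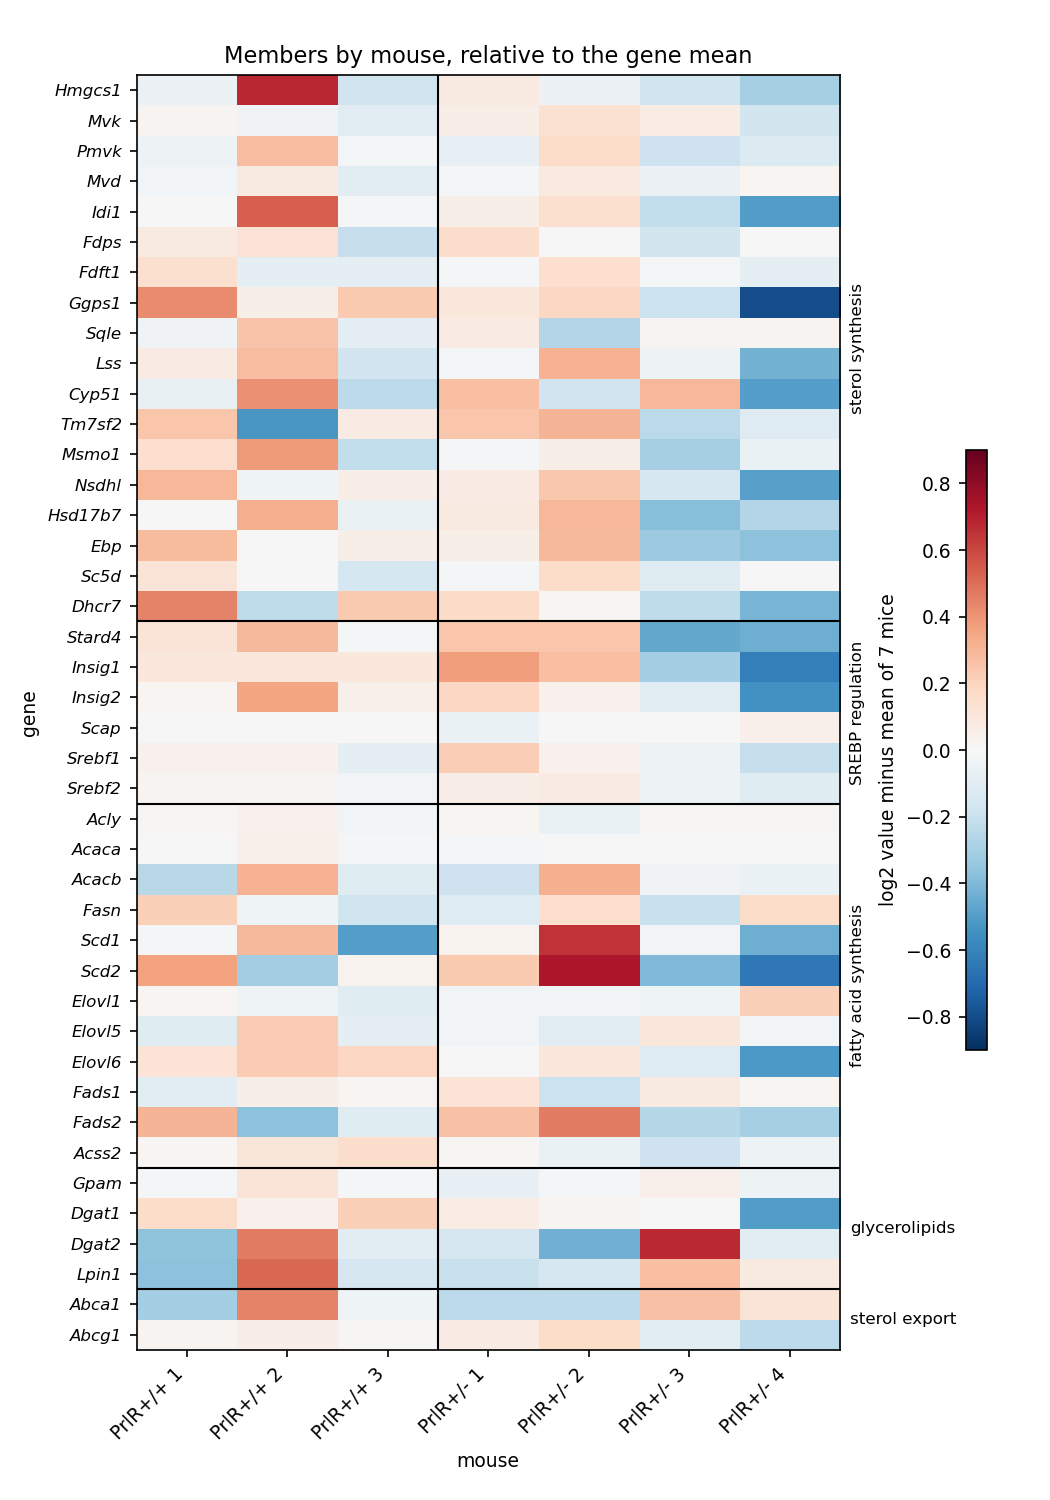
Log2 value of each member in each mouse minus its mean over the 7 mice, by role; red is above and blue below the mean, and the vertical line parts the genotypes. PrlR+/- 4 is alone at the lowest value for 17 of 42 members and PrlR+/+ 2 alone at the highest for 16.

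The genes that set SREBP activity had lower means for 5 of 6, with a median of -0.09. That median was 0.00 without PrlR+/- 4, -0.05 without PrlR+/- 3, -0.16 without PrlR+/- 2, -0.19 without PrlR+/- 1, and 0.04 with array weights. Srebf1, Srebf2 and Scap had differences close to 0. Srebf2, the main activator of sterol synthesis genes, had values of 10.03, 10.03 and 9.98 in PrlR+/+ and 10.07, 10.08, 9.96 and 9.90 in PrlR+/- islets (probe set 10425695). The whole span was 0.18, the groups overlapped, and the ratio of 0.993 had a 95% interval of 0.893 to 1.104. Srebf1, whose product drives lipogenic genes, had values of 9.06, 9.06 and 8.93 in PrlR+/+ and 9.24, 9.06, 8.97 and 8.81 in PrlR+/- islets (probe set 10386473). Both the highest and the lowest value belonged to PrlR+/- mice, and the difference was 0.003 ± 0.10 (SE). Scap, the escort protein gene, was at 10.71 on 5 of the 7 arrays and differed by -0.005 ± 0.05.

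Insig1, an SREBP target that encodes a retention protein, spread widely within one genotype. Its values were 11.09 in each of PrlR+/+ 1 to 3 and 11.37, 11.27, 10.69 and 10.38 in PrlR+/- 1 to 4 (probe set 10520362). PrlR+/- 1 and 2 lay above all wild-type mice, and PrlR+/- 3 and 4 below them. The difference was -0.16 ± 0.24 (SE) with all mice and 0.02 without PrlR+/- 4. Equal values on all 3 PrlR+/+ arrays occurred for 2 of 42 members and 5.65% of all genes. The SD of 0.00 there should therefore not be read as a measure of how alike the mice were.

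Insig2, the second retention protein gene, had values of 9.57, 9.91 and 9.60 in PrlR+/+ and 9.74, 9.59, 9.45 and 9.01 in PrlR+/- islets (probe set 10357280). Its difference was -0.25 ± 0.18 (SE), and -0.10 without PrlR+/- 4. Stard4, a carrier of cholesterol between membranes, had values of 8.11, 8.29 and 7.98 in PrlR+/+ and 8.25, 8.25, 7.54 and 7.56 in PrlR+/- islets (probe set 10458033). As for Insig1, PrlR+/- 3 and 4 lay below all other mice while PrlR+/- 1 and 2 lay among the wild-type mice, and the difference was -0.23 ± 0.21 (SE).

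**Figure D3:**
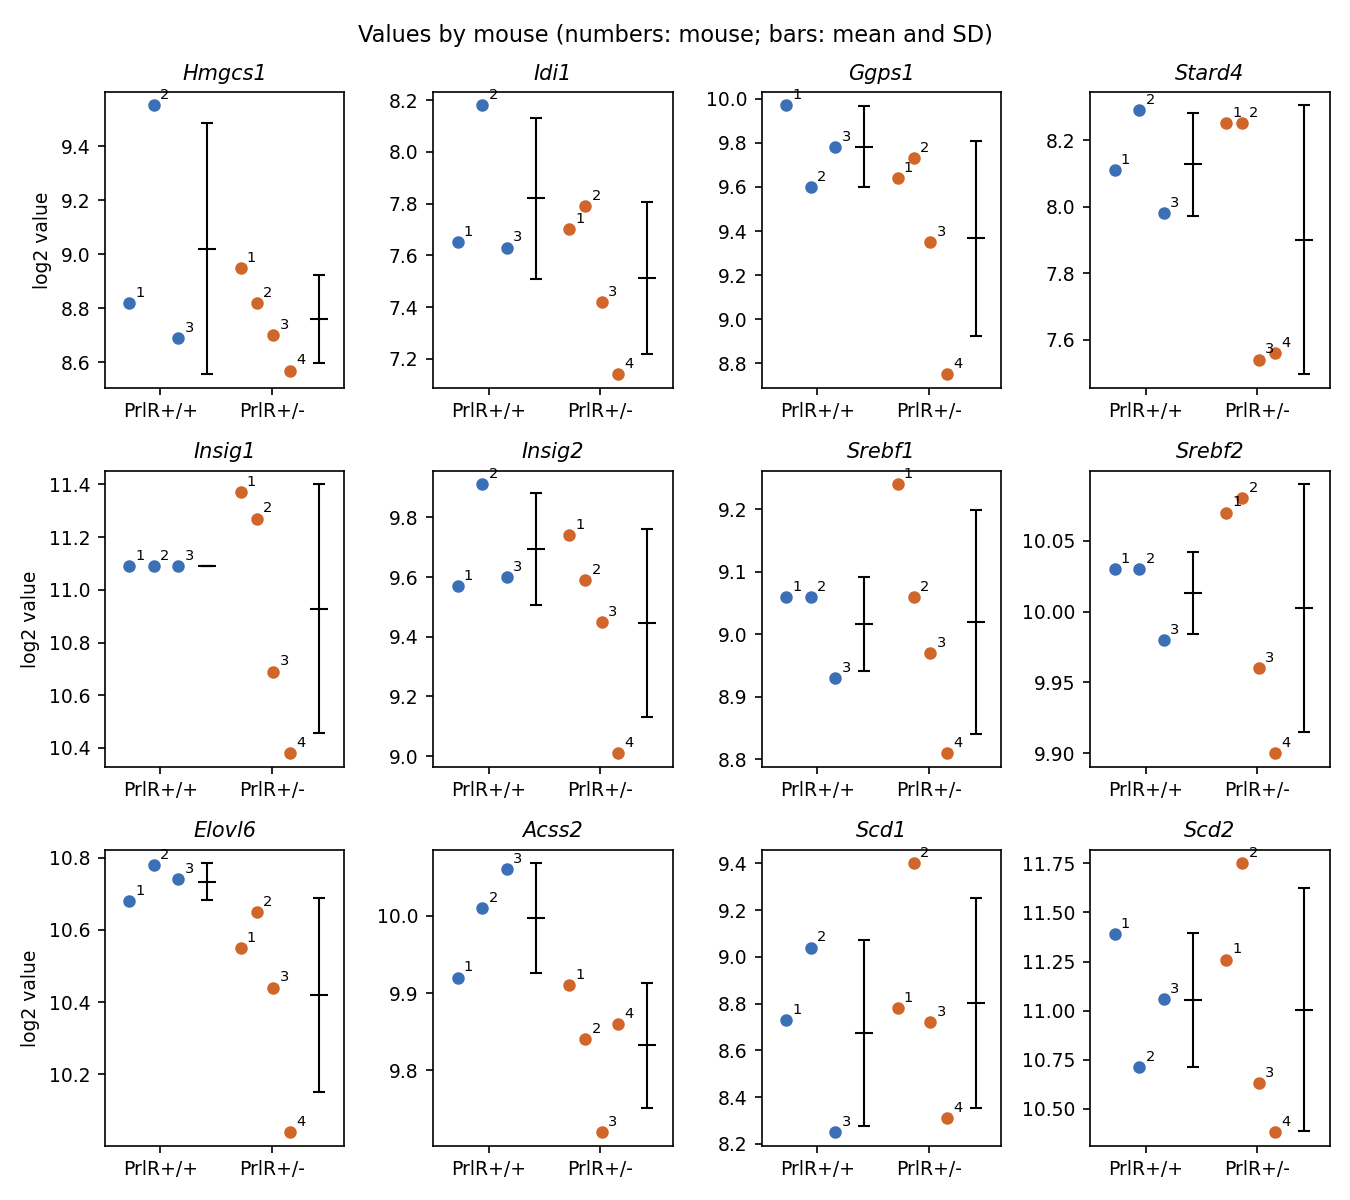
Log2 values of 12 members in each mouse, PrlR+/+ in blue and PrlR+/- in orange, with the mouse number beside each point and the group mean and SD (n = 3 and 4) as a bar. The groups do not overlap for Elovl6 and Acss2; for Insig1 the 3 PrlR+/+ mice share the value 11.09.

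Fatty acid synthesis held the members whose groups did not overlap. Acss2, which makes acetyl-CoA from acetate and has the CCAAT box shown above, had values of 9.92, 10.01 and 10.06 in PrlR+/+ and 9.91, 9.84, 9.72 and 9.86 in PrlR+/- islets (probe set 10477649). The groups did not overlap, but the nearest mice, PrlR+/- 1 and PrlR+/+ 1, were at 9.91 and 9.92. The SD was 0.08 over the 4 PrlR+/- and 0.07 over the 3 PrlR+/+ mice, and the difference was -0.16 ± 0.07 (SE), a ratio of 0.892 (limma, unadjusted p = 0.0456, adjusted p = 0.99). Leaving out each mouse gave -0.20 to -0.13. Over all 16 alternatives described at the end, its unadjusted p values were 0.0375 to 0.143 in limma.

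Elovl6, the elongase that extends palmitate to stearate, had values of 10.68, 10.78 and 10.74 in PrlR+/+ and 10.55, 10.65, 10.44 and 10.04 in PrlR+/- islets (probe set 10495993). The groups did not overlap, and PrlR+/- 4 lay farthest down. The means were 10.42 ± 0.27 (SD, n = 4) and 10.73 ± 0.05 (SD, n = 3), and the difference was -0.31 ± 0.14 (SE), a ratio of 0.805 with a 95% interval of 0.640 to 1.011 (limma, unadjusted p = 0.0595, adjusted p = 0.99). Without PrlR+/- 4 it was -0.19. Over all members, 5 did not overlap on the lower side if PrlR+/+ 2 was left out (5.09% of all genes) and 4 if PrlR+/+ 3 was (2.9%); groups of fewer mice overlap less often in any gene.

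The core lipogenic enzymes had differences close to 0. Fasn, the fatty acid synthase gene, had values of 9.99, 9.74 and 9.60 in PrlR+/+ and 9.66, 9.93, 9.58 and 9.94 in PrlR+/- islets (probe set 10393970). The groups spanned nearly the same range, and the ratio was 1.001 with a 95% interval of 0.811 to 1.234. Acly, which makes cytosolic acetyl-CoA from citrate, lay between 12.03 and 12.13 in all mice and Acaca, the acetyl-CoA carboxylase gene of lipogenesis, between 8.35 and 8.41. Their ratios of 0.990 (95% interval 0.908 to 1.078) and 0.987 (0.910 to 1.070) had narrow intervals. Both genes had equal values on some arrays, such as 8.36 in PrlR+/- 2, 3 and 4 for Acaca. A second Acaca probe set spanned 7.18 to 7.49. Acacb, the mitochondrial carboxylase gene, was dimmer and more variable, at 6.68 to 7.25, with a difference of 0.03 ± 0.16 (SE).

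The stearoyl-CoA desaturase genes varied widely between mice of both genotypes. Scd2, which had the largest range of the 42 members (1.37), had values of 11.39, 10.71 and 11.06 in PrlR+/+ and 11.26, 11.75, 10.63 and 10.38 in PrlR+/- islets (probe set 10463355). The highest and the lowest value both belonged to PrlR+/- mice, and the difference was -0.05 ± 0.34 (SE). Scd1 had values of 8.73, 9.04 and 8.25 in PrlR+/+ and 8.78, 9.40, 8.72 and 8.31 in PrlR+/- islets (probe set 10467979), with a difference of 0.13 ± 0.28 (SE) that was -0.08 without PrlR+/+ 3 and -0.07 without PrlR+/- 2. Scd1 and Scd2 are close relatives whose transcripts the same probes may bind. Fads2, the first desaturase of polyunsaturated fatty acids, shared with Scd2 and Scd1 its highest value in PrlR+/- 2 (9.89) and differed by 0.10 ± 0.23 (SE). Fads1 (0.02 ± 0.09, SE) and the elongase genes Elovl1 (0.07 ± 0.08) and Elovl5 (-0.02 ± 0.10) had narrower spreads.

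Of the 4 glycerolipid genes, 3 had a lower mean, with a median of -0.03 that turned to 0.11 without PrlR+/+ 2 and was -0.19 without PrlR+/+ 1 and -0.16 without PrlR+/- 3. Dgat1, one of the enzymes that complete triglycerides, had values of 8.70, 8.57 and 8.75 in PrlR+/+ and 8.60, 8.56, 8.53 and 8.03 in PrlR+/- islets (probe set 10429926). The difference of -0.24 ± 0.14 (SE) was -0.11 without PrlR+/- 4, the 1 mouse far below the rest. Gpam, the mitochondrial glycerol-3-phosphate acyltransferase gene, had values of 8.42, 8.55 and 8.43 in PrlR+/+ and 8.36, 8.43, 8.48 and 8.39 in PrlR+/- islets (probe set 10468533), with a difference of -0.05 ± 0.06 (SE). Its groups overlapped within a span of 0.19. Dgat2 ranged from 7.33 to 8.43 and Lpin1, a phosphatidate phosphatase gene, from 8.92 to 9.81, and both had a difference of 0.00 on rounding, with standard errors of 0.29 and 0.22.

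The cholesterol exporters, known targets of the sterol sensors LXR, were measured last. Abca1 had values of 9.41, 10.16 and 9.68 in PrlR+/+ and 9.47, 9.48, 9.98 and 9.83 in PrlR+/- islets (probe set 10512949), and Abcg1 10.09, 10.12 and 10.07 against 10.14, 10.23, 9.96 and 9.83 (probe set 10443730). PrlR+/- 3 and 4 lay above the other PrlR+/- mice for Abca1 and below them for Abcg1. The differences were -0.06 ± 0.20 and -0.05 ± 0.10 (SE).

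For 26 of 42 members the SD over the mice was above the median of genes with a mean above the 40th percentile. The SD over the 7 mice had a median of 0.232 for members against 0.151 for the 11963 genes above the 40th percentile of the mean and 0.134 for all genes. For 15 of 42 members (35.7%) the SD lay in the highest 10% of all genes, among them Scd2, Dgat2, Scd1, Ggps1 and Insig1. At the other end, Acaca (0.021), Scap (0.029) and Acly (0.032) were among the steadiest, although a second Acaca probe set ranged more widely, from 7.18 to 7.49 (highest in PrlR+/- 3).

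PrlR+/- 4 was alone at the lowest value for 17 members (40.5%), among them Hmgcs1, Idi1, Ggps1, Cyp51, Dhcr7, Insig1, Insig2, Srebf2, Elovl6 and Dgat1, against 26.2% of genes above the 40th percentile. It was alone at the highest value for 2 members, Scap and Elovl1 (4.8%, against 18.5%). PrlR+/- 3 and PrlR+/- 4 together held the lowest 2 values for 14 members (33.3%, against 10.4%), which include Idi1, Ggps1, Ebp, Stard4, Insig1, Insig2, Scd2 and Elovl6. Pairs across the genotypes also held the lowest 2 values more often than in other genes. PrlR+/+ 3 and PrlR+/- 4 did so for 7 members (16.7%, against 2.5%), among them Hmgcs1, Lss and Cyp51. PrlR+/+ 3 and PrlR+/- 3 did so for 5 (11.9%, against 2.8%). These counts are descriptions of single arrays, and members that share a pathway are not independent of each other.

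At the high end, PrlR+/+ 2 was alone at the top for 16 members (38.1%, against 17.8% of genes above the 40th percentile), and PrlR+/- 2 for 13 (31.0%, against 11.3%). PrlR+/+ 2 was highest for Hmgcs1, Idi1, Sqle, Cyp51, Msmo1, Hsd17b7, Insig2, Stard4, Lpin1 and Abca1, and PrlR+/- 2 for Mvk, Fdft1, Lss, Tm7sf2, Ebp, Sc5d, Scd1, Scd2 and Fads2. Tm7sf2, picked out after its values were seen, had its lowest value, 7.17, in PrlR+/+ 2, and the other mice lay at 7.45 or above.

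**Figure D4:**
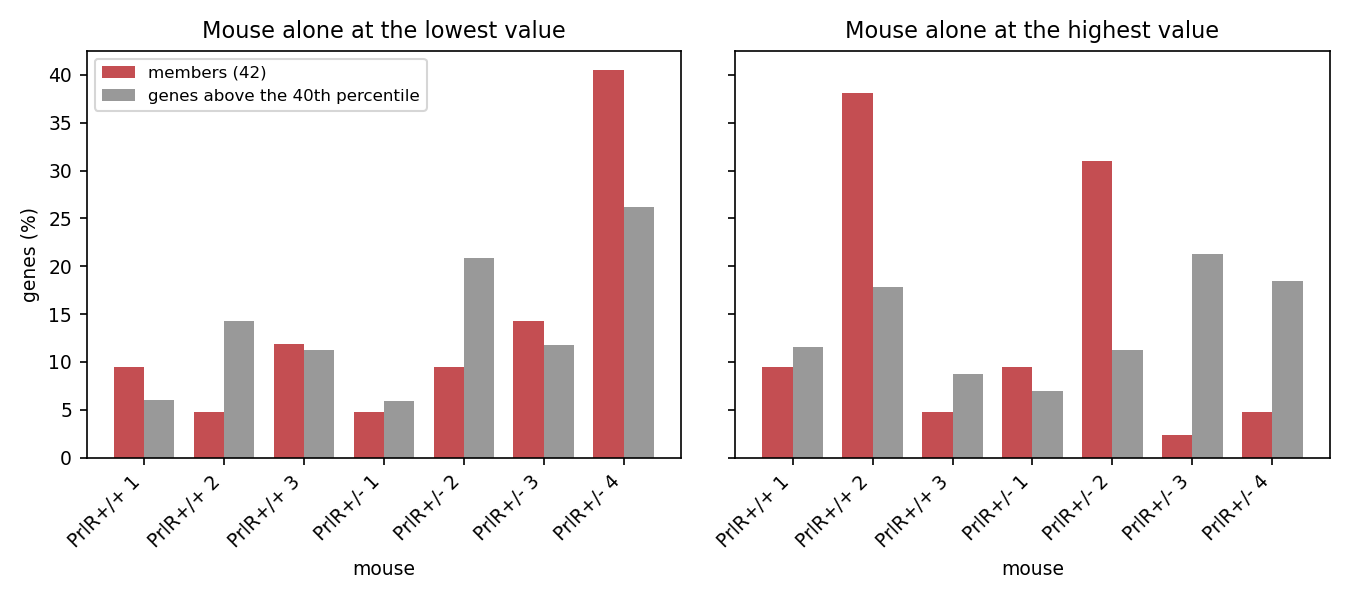
Share of genes, in percent, for which each mouse alone had the lowest (left) or highest value (right), for the 42 members in red and for 11963 genes above the 40th percentile of the mean in grey. Among members PrlR+/- 4 leads at the low end with 40.5% and PrlR+/+ 2 at the high end with 38.1%.

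The role groups' mean values per mouse differed in their order. For the 18 sterol synthesis genes the PrlR+/+ mice 1 to 3 had means of 9.031, 9.056 and 8.862, against 8.987, 9.031, 8.783 and 8.662 in the PrlR+/- mice 1 to 4. The mean of the 6 SREBP regulators was 9.762, 9.848 and 9.715 against 9.887, 9.827, 9.553 and 9.402. For the 12 fatty acid genes the means were 9.894 to 10.002 in PrlR+/+ and 9.819 to 10.118 in PrlR+/- islets. In these 3 groups PrlR+/- 3 and 4 lay below every other mouse, PrlR+/- 1 and 2 lay among or above the wild-type mice, and the genotypes overlapped. The glycerolipid and export groups did not follow this: PrlR+/- 3, at 8.75 and 9.97, was second there after PrlR+/+ 2, at 8.788 and 10.14.

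Markers of other cells moved with some of these mice. PrlR+/- 2, which was highest for Scd1, Scd2 and Fads2, had the highest mean of 12 acinar markers, 12.07, against 11.31 to 11.71 in the other 6 mice, and 11 of the 12 had a higher mean in PrlR+/- islets. With the acinar mean as a covariate, 36 of 42 members had a lower mean in PrlR+/- (42.7% of all genes) and 0 passed the adjusted threshold. In that fit 3 members, Idi1, Lss and Elovl6, had an unadjusted p under 0.05 (2.95% of all genes), and Acss2 did not. Fat cells are rich in lipogenic enzymes. The 6 adipocyte markers, 5 of them with a higher mean in PrlR+/-, had list means of 6.057 to 6.377 in PrlR+/+ and 6.055 to 6.515 in PrlR+/- islets, highest in PrlR+/- 4. Adipoq (4.07 to 4.64) and Lep (5.25 to 5.66) lay below the lower quartile of genes at 5.71. Retn (5.87 to 6.15), Plin1 (6.45 to 6.65) and Cidec (6.53 to 6.94) lay above it. Fabp4, which endothelial cells and macrophages also express, ranged from 7.61 to 9.33. PrlR+/- 4 also had the lowest mean of 9 beta cell markers, 11.92, against 12.05 to 12.21 in the others, but the markers did not move together: in that mouse Slc2a2 (11.31) and Mafa (9.54) had their lowest values and Iapp (13.52) and Nkx6-1 (11.27) their joint highest. Of the 9, 6 had a lower mean in PrlR+/- islets. Means of the duct (7.212 to 7.575), endothelial (9.499 to 9.835), macrophage (7.588 to 8.103) and stellate (7.529 to 7.966) markers overlapped between the genotypes, as did those of other endocrine cells (11.375 to 11.690), although all 6 of the latter had a higher mean in PrlR+/-. Single markers stood apart: the macrophage marker Lyz2 had a mean 0.64 higher in PrlR+/- with no overlap and the smallest unadjusted p of all genes, but did not pass the adjusted threshold (limma, adjusted p = 0.99). The endothelial marker Emcn (by 0.26) and the duct marker Sox9 (by 0.21) also had no overlap, a property of 1.03% of all genes on the higher side. The endothelial marker Cdh5 was higher by 0.23 with overlap. Other markers of the same lists had lower means in PrlR+/-. These were 2 of 8 endothelial markers (Kdr, -0.17, and Esam, -0.11) and 2 of 6 duct markers (Krt7, -0.14, and Cftr, -0.03). Of 8 macrophage markers, 2 were lower (C1qa, -0.06, and Itgam, -0.0025). The part of any of these cells in the members' values was not tested.

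**Figure D5:**
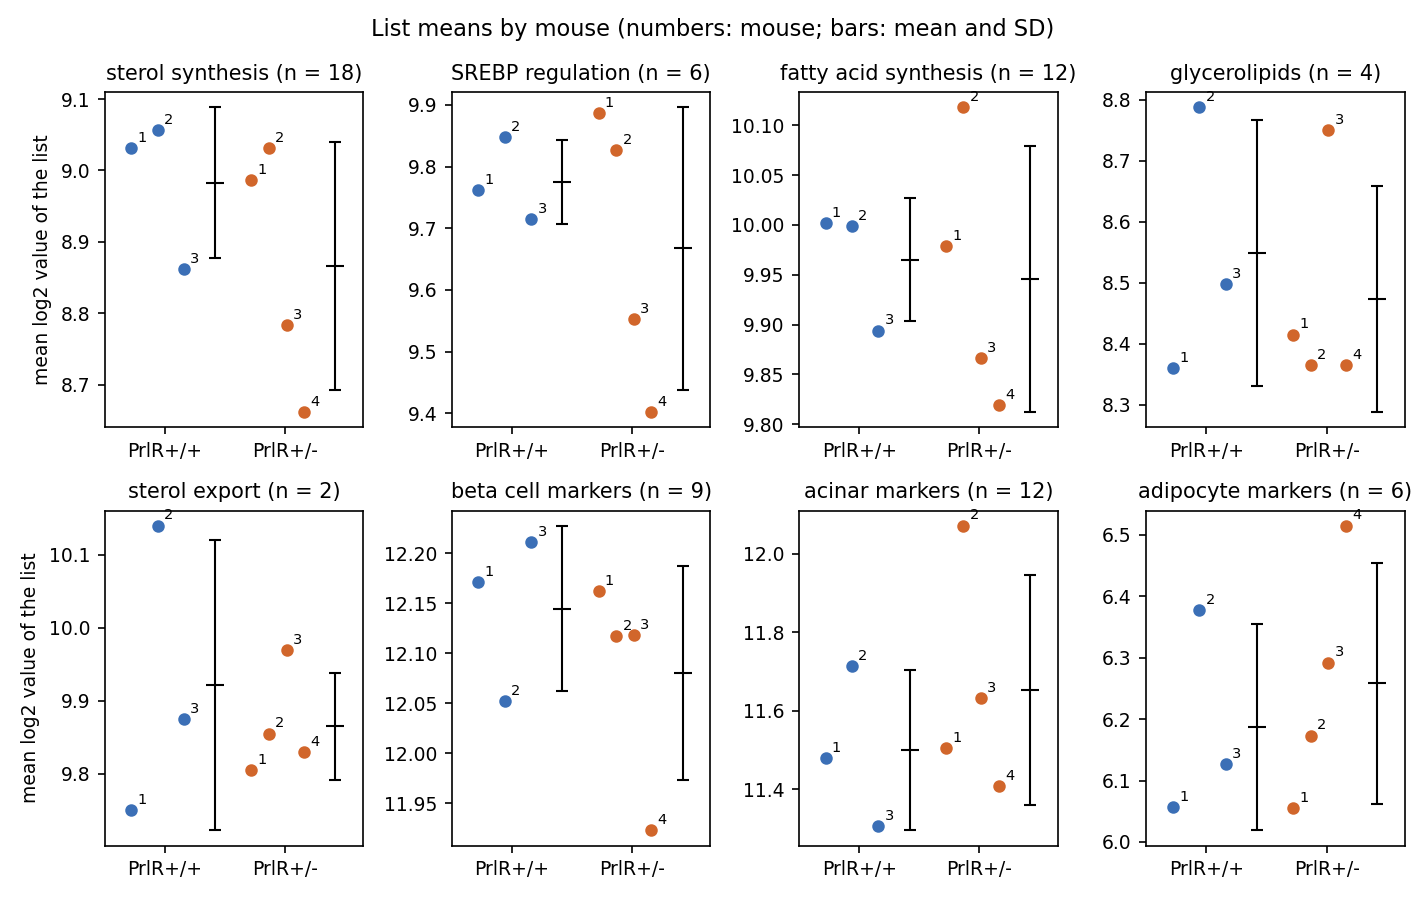
Mean log2 value of each role group and of 3 marker lists in each mouse, with n the number of genes, the mouse number beside each point, and the group mean and SD (n = 3 and 4 mice) as a bar. PrlR+/- 3 and 4 lie below all other mice for sterol synthesis and SREBP regulation, and PrlR+/- 4 is lowest for beta cell markers.

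None of the measured genes next to the module in the same pathways passed the adjusted threshold. Of 36 other genes of sterol synthesis, prenylation, uptake, storage and traffic, 26 were measured, 14 had lower and 11 higher means, the median difference was -0.03, and 0 passed the adjusted threshold. The groups did not overlap for 1 of the 26 (1.21% of all genes on the lower side), Pggt1b, the beta subunit gene of the type I protein prenyl transferase, which uses the product of Ggps1. Its values were 8.34, 8.48 and 8.30 in PrlR+/+ and 8.18, 8.18, 7.82 and 7.70 in PrlR+/- islets (probe set 10458784). All PrlR+/- mice lay below all PrlR+/+ mice, and the lowest were PrlR+/- 3 and 4. The difference was -0.40 ± 0.14 (SE), a ratio of 0.756 with a 95% interval of 0.607 to 0.942 (limma, unadjusted p = 0.0195, adjusted p = 0.99), and leaving out each mouse gave -0.47 to -0.31. The other alternatives described at the end gave -0.48 to -0.24. Over all 16 alternatives its unadjusted p values were 0.00813 to 0.0703 in limma.

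Of 40 other genes of fatty acid and glycerolipid synthesis and lipid droplets, 38 were measured, 19 had lower and 19 higher means, the median was -0.002, and 0 passed the adjusted threshold or an unadjusted p under 0.05. The smallest unadjusted p values belonged to Acsl4, which activates arachidonic acid, and Elovl4, which makes very long fatty acids. Acsl4 had values of 9.77, 9.71 and 9.83 in PrlR+/+ and 9.75, 9.65, 9.31 and 9.18 in PrlR+/- islets (probe set 10607089), a difference of -0.30 ± 0.14 (SE). Elovl4 had values of 9.22, 9.65 and 9.38 against 9.32, 8.95, 9.32 and 9.14 (probe set 10595392), a difference of -0.23 ± 0.13 (SE) that was -0.12 without PrlR+/+ 2 and -0.16 without PrlR+/- 2. For both the groups overlapped, Acsl4 through PrlR+/- 1 alone.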

How the data were processed

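The authors deposited log2 values, 1 per probe set and array, with 2 decimals, a scale inferred from their range. Affymetrix Expression Console 1.2.0.20 is named in the submitters' processing notes. How background, normalization and probe summary were handled is not given in the sources used here. Per the labels' protocols, 250 ng of RNA per mouse was labelled. Of 35556 probe sets, 21789 had 1 gene symbol in the platform annotation; 1621 with several and 12146 with none were left out. The probe set of highest mean stood for each of 19938 genes. Differences come from limma 3.58.1 (lmFit, eBayes, 2-sided, Benjamini-Hochberg over all genes) in R 4.3.3, with no filter and no covariate. Tables were made with pandas 2.3.3 in Python 3.11.15. The limma step was tested on simulated data. Files give no scan date, and batch was not tested. Arrays have no read depth; their number, 3 against 4, limits the precision, and each array is 1 mouse.

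The members and the lists were chosen with earlier results of these data known. Values in every mouse are given for members whose groups do not overlap or with an unadjusted p under 0.05, the 2 of smallest unadjusted p per role, and Hmgcs1, Srebf1, Srebf2, Insig1, Fasn, Scd1 and Scd2. Of the other pathway lists, genes with both properties are given, or else the 2 of smallest unadjusted p. Promoter windows are RefSeq's. Some genes of the lists were not analysed here.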

Additional observations from a re-analysis of the deposited data

Results flagged for a closer look

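Of 51 sets of 4 PrlR+/- values or list means examined, 6 had 1 mouse far from the other 3, by the ratio of its gap to the whole range (above 0.829). Chance gives about 1 in 20 for values without ties. Sqle, Acly and Elovl1 each had 2 equal values among the 3 close mice, and ties can raise the ratio. The count of 6 can therefore not be set against that rate. For Dgat1, PrlR+/- 4 was at 8.03 and the others at 8.53 to 8.60. For Elovl1, PrlR+/- 4 was at 10.43 and the others at 10.18 to 10.19. For Sqle, PrlR+/- 2 was at 10.26 against 10.55 to 10.60, and for Acly it was at 12.03 against 12.10 to 12.11. For Acaca, PrlR+/- 1 was at 8.35 where the other 3 shared the value 8.36. This is 1 step of the last decimal, so its ratio is set by rounding. The mean of the 4 glycerolipid genes was 8.75 in PrlR+/- 3 and 8.37 to 8.41 in the others; Dgat2 and Lpin1 were high in that mouse.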

How the results depend on the processing

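All 16 alternatives left 0 genes and 0 members past an adjusted p of 0.05 by limma. None of 720 gene values moved by more than 1 SD between mice. In groups of this size, leaving out 1 mouse cannot move a difference that far. An intensity trend, robust variances and leaving out dim genes do not change the difference. For these settings the outcome was fixed in advance, so it is no measure of stability. Members with an unadjusted p under 0.05 numbered 1 as reported, against 2.2% of all genes. They numbered 0 with an intensity trend (2.12% of all genes), robust variances (2.09%) or quantile normalization (2.36%). They also numbered 0 with dim genes left out (2.21% of genes kept) or the replicate block (1.71%). With median centring the number was 2 (2.21%), and with the acinar covariate 3 (2.95%). It was 0 to 2 when each mouse was left out (1.24% to 3.98%). Members with a lower mean numbered 29, 16 with array weights, and 24 to 37 without each mouse. Members without overlap on the lower side numbered 2 (1.21% of all genes) and 1 with quantile normalization (2.35%). They numbered 2 with median centring (3.28%), and 2 to 5 when each mouse was left out (2.0% to 5.09%). On the higher side they numbered 0 (1.03%), and 0 to 1 when each mouse was left out (1.53% to 5.19%). The 1 was without PrlR+/- 4 (1.53%). Signs turned for 11 members with array weights (Hmgcs1, Sqle, Lss, Cyp51, Hsd17b7, Stard4, Insig1, Srebf2, Scd2, Elovl5 and Abcg1). They turned for 6 with the replicate block, the same 6 as without PrlR+/- 4. Number 4 occurs in PrlR+/- only, so the replicate block sets PrlR+/- 4 aside and gives the differences found without that mouse. Signs turned for 5 with the acinar covariate, 2 with quantile normalization and 2 to 8 when a mouse was left out. The cause of the other turns was not tested. The labels do not say whether replicate numbers pair the mice. Correlations of deviations were 0.09, -0.386 and -0.029 for same numbers, and -0.238 to 0.398 for different numbers. The deviations of a gene sum to 0 within each genotype, so these correlations cannot decide it. With the replicate block 24 members had a lower mean and the SREBP group's median was 0.00, both as without PrlR+/- 4.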

Other observations

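The pairs of mice that held the highest 2 values differed between members. PrlR+/+ 2 and PrlR+/- 2 held them for 7 members (16.7%, against 2.5% of genes above the 40th percentile): Pmvk, Mvd, Idi1, Lss, Hsd17b7, Acacb and Scd1. The same mice had the highest 2 means of the acinar markers, 11.714 and 12.072, and the part of acinar cells in these values was not tested. PrlR+/+ 1 and PrlR+/- 2 led for 6 members (14.3%, against 8.1%), and PrlR+/+ 2 and PrlR+/- 3 for 6 (14.3%, against 10.3%), shares nearer to those of other genes.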
